A study of Mus musculus with 24 samples.

Results

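The cytosolic ribosomal protein genes encode the proteins of the ribosome that translates nuclear mRNA in the cytoplasm. They were taken by name: Rpl or Rps followed by a number, with or without a letter a, l or x and a closing digit, together with Rplp0, Rplp1, Rplp2 and Rpsa, and without pseudogene copies. The rule took 84 of the 25755 genes measured, of which 52 belong to the large subunit and 32 to the small subunit. RNA was sequenced from dermal papilla cells, the mesenchymal cells at the base of the mouse hair follicle, which carried a YFP reporter and were sorted by fluorescence from dissociated skin. The 24 libraries fall into 8 groups of 3, control and dM1/2, at postnatal day 20 (P20, telogen of the first hair cycle), P24 (early anagen of the second cycle), P28 (mid anagen) and P60 (second telogen). The dM1/2 mice were Cor-cre/+;Hdac1Flox/Flox;Hdac2Flox/Flox, so that both histone deacetylase genes were floxed and Cre was driven by the dermal papilla gene Corin. Control mice, per the study's methods, also carried Cor-cre/+ and floxed alleles, at 1 or both genes and in some crosses homozygous at 1 of them, and the genotype of a given control library is not in its label. The methods give females for P20, males for the anagen ages and both sexes for the second telogen. Reads on genes ranged from 8171944 to 49331751 per library.

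Ribosomal proteins assemble with ribosomal RNA in the nucleolus into a large and a small subunit, and most of them are needed in equal number in every ribosome. Their mRNAs are among the most abundant of a cell, and many begin with a run of pyrimidines that couples their translation to growth signals. The dermal papilla instructs the growth of the hair follicle above it and itself divides little.

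Hdac1 and Hdac2 were examined first, in normalized reads, which are the authors' read counts divided by a size factor per library. At P20, Hdac1 had 375, 511 and 505 in controls and 216, 369.6 and 270.0 in dM1/2. At P24 it had 675, 668 and 668 in controls and 209, 188 and 116 in dM1/2. The groups did not overlap at either age, and Hdac1 fell at P24 with a log2 fold change of -2.01 (limma with Benjamini-Hochberg adjusted p = 0.00167), while at P20 the log2 fold change was -0.72 (limma with Benjamini-Hochberg adjusted p = 0.122). At P28, Hdac1 had 214, 529 and 105 in controls and 190.2, 149 and 126 in dM1/2. The library labelled P28 control 3 thus had less Hdac1 than any P28 dM1/2 library. Some control genotypes of the study are homozygous for floxed Hdac1, and its label does not say whether it has one of them. At P60, Hdac1 had 506, 359.9 and 376 in controls and 371, 347 and 318 in dM1/2, and the groups overlapped. Hdac2 showed no such drop. It had 828, 952 and 852 in controls and 928, 839 and 838 in dM1/2 at P20 and 925, 1048 and 1069 in controls and 1157, 1223 and 1282 in dM1/2 at P24. It had 1077, 968 and 1117 in controls and 1091, 1223 and 1209.6 in dM1/2 at P28 and 775, 727 and 609 in controls and 699, 719 and 809.6 in dM1/2 at P60. These are values over whole genes, which include exons outside the floxed part, so they do not check the deletion itself.

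In other values the library labelled P28 control 3 lay with the controls in some and with dM1/2 in others. Its share of reads on ribosomal protein genes was 1.57%, its ratio of large to small subunit reads 1.38 and its summed level of 5 dividing cell markers 468, each on the control side of all P28 dM1/2 libraries. Its summed level of endothelial markers was 366, against 1548 and 1361 in the other P28 controls and 507, 474 and 550.0 in dM1/2. Its summed level of dermal sheath markers was 3251, against 6652 and 8722 in the other controls and 2042, 3033 and 4788 in dM1/2. It had the highest Corin of the 24 libraries (75255 normalized reads), and Col1a1 took 1.55% of its reads against 19.8% in P28 control 2. Of 10 dermal papilla markers, Corin, Sox2, Sox18, Alpl, Vcan, Rspo3, Crabp1, Hhip, Prom1 and Fgf7, each had reads in all 24 libraries. Xist, which is transcribed from the inactive X chromosome of females, lay between 8113 and 26333 normalized reads at P20 and P60 and at 3.91 or less at P24 and P28. Ddx3y of the Y chromosome was at 0 in all P20 and P60 libraries and between 969 and 1738 at the anagen ages. Depth split the same way, with 8171944 to 13369732 reads on genes at P20 and P60 and 35469841 to 49331751 at P24 and P28. Anagen and telogen therefore cannot be told apart from sex or depth in any comparison across them. The labels call the 3 libraries of a group biological replicates without naming animals, and p-values measure the spread between these libraries.

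Of the 84 genes, 81 had a mean of at least 10 normalized reads in the libraries of each comparison and were tested. Their means over the 24 libraries ranged from 317 (Rpl23a) to 13304 (Rpsa), with a median of 4515. Levels per kilobase of exon divide by all annotated exon bases of a gene (499 in Rplp1 and 6270 in Rps15a), so their order depends on the annotation too. On this scale, levels ranged from 225 for Rpl7l1 to 17479 for Rplp1, an acidic protein of the ribosomal stalk, with a median of 2184. Rps3a1 was next at 10406 per kilobase, followed by Rps15 at 8276 and Rplp0, the base of the stalk, at 7670.2. The 5 genes with most reads (Rpsa, Rplp0, Rpl4, Rps4x and Rpl3) together made up 15.5% of the summed level of the 84. The genes not tested were paralogs. Rpl10l, a copy of Rpl10 known from testis, had 0 of 652266764 reads, and such a count of 0 allows up to 3 reads in all. Rpl3l, the copy of Rpl3 known from muscle, had a mean of 0.707 normalized reads, and Rpl6l had 5.55. The 84 genes were spread over 19 chromosomes. Chromosome 7 held 14 of them, or 16.7% against 8.88% of all genes, chromosome 17 held 8 and chromosomes 9 and 11 held 7 each.

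The share of all reads on genes that fell on the 84 genes gives their joint level relative to the total of a library. It uses no size factor, but it depends on how many reads other genes take. At P20 it was 1.12, 1.28 and 1.396% in controls and 1.31, 1.44 and 1.61% in dM1/2. At P24 it was 1.86, 1.66 and 1.37% in controls and 2.25, 2.48 and 3.17% in dM1/2. Each P24 dM1/2 library thus lay above each P24 control, with 2.63% ± 0.477 (SD, n = 3) against 1.63% ± 0.246. At P28 the share was 1.62, 1.18 and 1.57% in controls and 2.79, 3.73 and 2.86% in dM1/2, or 1.46% ± 0.238 against 3.13% ± 0.524 (SD, n = 3), again with no overlap. At P60 it was 1.76, 1.80 and 2.22% in controls and 1.89, 1.49 and 1.76% in dM1/2, and the groups overlapped. The widest 95% Wilson interval of any of these shares spanned 0.0194 percentage points, far less than the spread between libraries, and such intervals cover counting error only. Of the reads on genes, Col1a1 alone took 19.4 to 21.4% in P20 controls and 13.1 to 15.9% in P20 dM1/2. In P28 controls it took 1.55 to 19.8%, and in P28 dM1/2 5.12 to 9.77%. Within a bulk library, fewer cells of a type and less RNA per cell cannot be told apart.

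**Figure D1:**
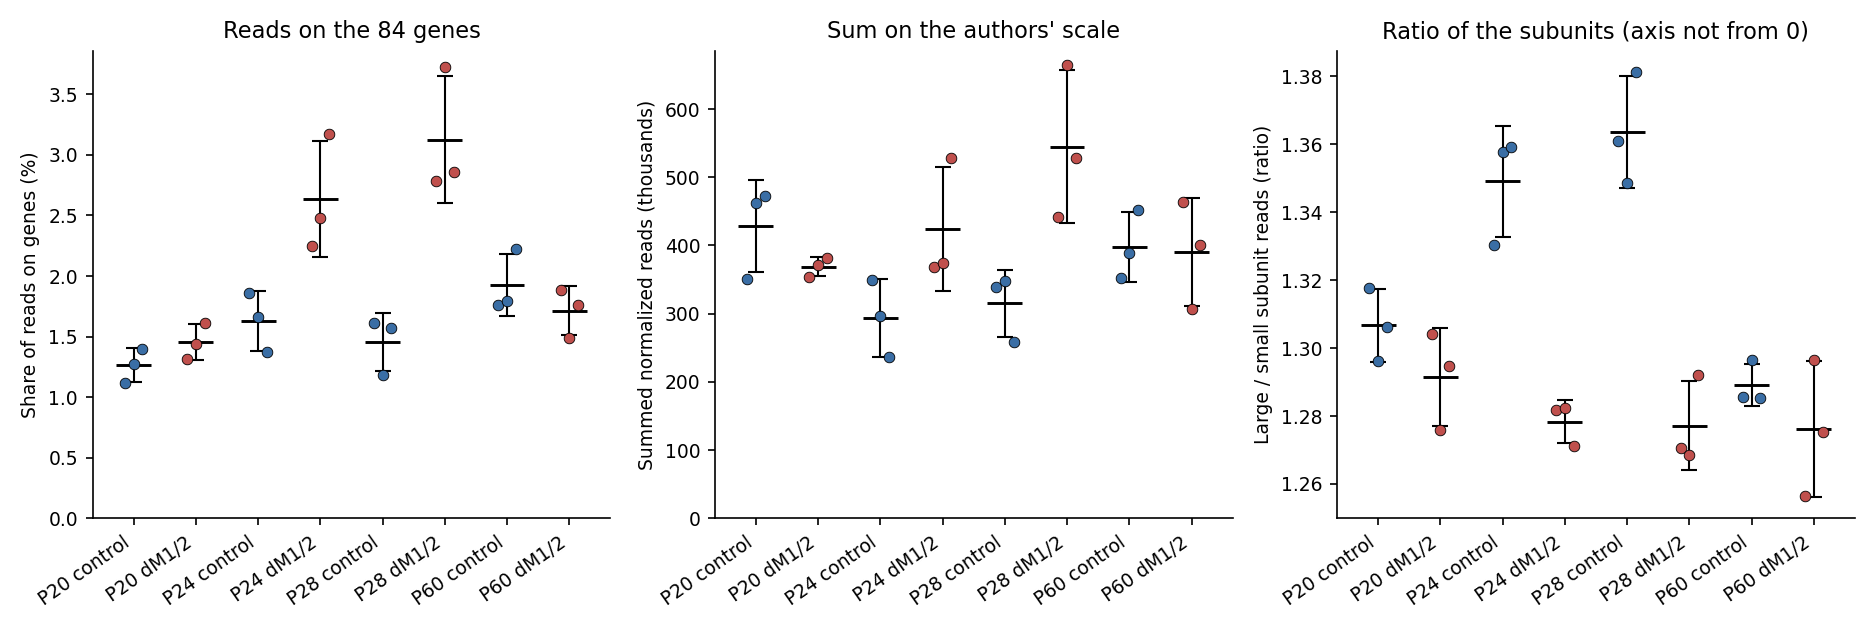
Share of reads on the 84 genes (left, percent), their sum on the authors' scale (middle, normalized reads) and the ratio of large to small subunit reads (right, axis not from 0) in each of the 24 libraries (blue, control; red, dM1/2), with the mean and SD of 3 libraries. The dM1/2 libraries of P24 and P28 lie above their controls in share and below them in ratio, while at P20 dM1/2 lies above control in mean share and below it in mean sum.

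The direction at P20 depended on the scaling, and that at P24 and P28 did not. On the authors' scale, the summed level of the 84 genes in dM1/2 was 0.861 of control at P20, 1.44 times control at P24, 1.73 times at P28 and 0.980 of control at P60. With trimmed mean (TMM) scaling the ratios were 0.861, 1.47, 1.74 and 0.963. With libraries scaled to the reads outside the 84 genes they were 1.15, 1.63, 2.19 and 0.887, so that P20 turned from lower to higher. That last scaling moved the median log2 fold change of all tested genes from -0.01 to 0.33 at P20 and from -0.01 to 0.15 at P24. For P28 that median moved from 0.00 to 0.30, and for P60 from 0.02 to -0.09. Against these shifts the ribosomal protein genes had medians of 0.19 (P20), 0.66 (P24), 1.08 (P28) and -0.18 (P60). Their median stood below that of all genes at P20 and above it at both anagen ages on either scale. The share of higher genes among all calls moved with it, from 81.7% to 99.4% at P20, from 55.5% to 74.8% at P24 and from 56.2% to 83.6% at P28.

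At P20, none of the 81 tested genes was called by limma on log2(normalized reads + 1) at a Benjamini-Hochberg adjusted p under 0.05, against 60 of 13845 genes called in either direction, or 0.433%. At an unadjusted p under 0.05 there were 8, against 2735 of all genes, and edgeR and DESeq2 called 0, against 80 and 663 of all genes. The median log2 fold change, dM1/2 against control, was -0.22 against -0.01 for all genes, and 2 of the 81 values were positive. With reads outside the 84 genes as the scale, the direction turned, with a median of 0.19, 77 positive values and 2 genes called higher, against 3387 of 13845 genes. The largest differences were in Rpl23a, with a log2 fold change of -0.53 (limma with Benjamini-Hochberg adjusted p = 0.279), Rpl38 with -0.48 (limma with Benjamini-Hochberg adjusted p = 0.159) and Rps29 with -0.43 (limma with Benjamini-Hochberg adjusted p = 0.173). Each dM1/2 library was below each control in 9 of the 81 genes, against 13.3% of all genes. The opposite order occurred in 0 of the 81, against 1671 of 13845 genes. P20 control 1 was the lowest of its group, with a summed level of 351446 normalized reads against 461972 and 472282 in the other controls. Without it, 30 of the 81 genes were called lower and the median was -0.36, in a fit that called 1530 of 13831 genes, 719 of them higher. Without P20 control 3 the median was -0.14, with 0 of the 81 called.

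At P24, in early anagen, 17 of the 81 genes rose in dM1/2 and 0 fell, against 14.8% of all genes called higher and 11.8% called lower (limma, 14028 genes tested). At an unadjusted p under 0.05 there were 45, against 5548 of all genes. The median log2 fold change was 0.49 against -0.01 for all genes and positive under each scaling tried, and 79 of 81 values were positive. That median was 0.32 without P24 control 3 and 0.32 without P24 dM1/2 3. The 17 included Rpsa, Rps19, Rplp2, Rplp1, Rpl39l, Rps16, Rpl12, Rpl35, Rps6, Rpl23, Rpl27a, Rpl18, Rpl4, Rps23 and Rps27l, and the log2 fold changes of the 17 ran from 0.52 to 1.08. In 46 of the 81 genes, each dM1/2 library was above each control, against 23.8% of all genes.

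Rpsa, the small subunit protein that is also known as a laminin receptor, had the largest rise at P24. Its normalized reads were 9939, 7859 and 6582 in controls and 14245, 15275 and 22366 in dM1/2. Its lowest dM1/2 library thus lay above its highest control, and its log2 fold change was 1.08 (standard error 0.23, limma with Benjamini-Hochberg adjusted p = 0.0140). Rps19, a small subunit protein mutated in Diamond-Blackfan anaemia, had 3933, 3218 and 2933 in controls and 5731, 6058 and 8473 in dM1/2. The groups were again apart, with a log2 fold change of 0.995 (standard error 0.19, limma with Benjamini-Hochberg adjusted p = 0.00900). Rplp2, the partner of Rplp1 in the stalk that recruits the translation factors, had 2650.2, 2205 and 1789.9 in controls and 3525, 3854 and 5361 in dM1/2, and its log2 fold change was 0.93 (standard error 0.20, limma with Benjamini-Hochberg adjusted p = 0.0151). All 3 of its dM1/2 libraries were above all controls. Rplp1 itself had a log2 fold change of 0.77 (standard error 0.23, limma with Benjamini-Hochberg adjusted p = 0.0430).

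At the other end, 2 of the 81 values were negative at P24, and both genes are paralogs of a classical ribosomal protein gene. Rpl7l1, a nucleolar relative of Rpl7, had 1076, 958 and 785 in controls and 798, 622 and 892 in dM1/2, with a log2 fold change of -0.29 (standard error 0.18, limma with Benjamini-Hochberg adjusted p = 0.268). Rpl22l1 had a log2 fold change of -0.04 (standard error 0.15, limma with Benjamini-Hochberg adjusted p = 0.879), which turned positive with the reads outside the 84 genes as the scale, at 0.14. Rpl36, Rpl9 and Rpl23a followed with 0.13, 0.15 and 0.19. None of these 5 passed the test.

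The count of 17 at P24 depended on single libraries and on the tool, while the number of positive values did not. It was 1 without P24 control 2, 4 without P24 control 3, 6 without P24 dM1/2 1, 4 without P24 dM1/2 2 and 4 without P24 dM1/2 3, and 22 without P24 control 1. Over all genes, the share called higher in these fits was 8.80, 15.2, 9.23, 10.8, 9.29 and 11.6%, so that in 5 of the 6 the ribosomal protein genes were called higher less often than all genes (1.23% to 7.41%). Between 77 and 80 of the 81 values were positive in these 6 fits. Of the 17 genes, Rps19 alone was called in all 6. The count was 14 with TMM scaling, 8 by edgeR and 8 without a filter on low values, 32 by DESeq2, 26 in a single fit over the 24 libraries and 58 with the reads outside the 84 genes as the scale. By edgeR that was 9.88% against 14.2% of all genes, and without the filter 9.64% against 9.93%. With TMM scaling it was 17.3% against 14.5%, by DESeq2 39.5% against 17.5%, in the single fit 32.1% against 13.5%, and with the outside reads 71.6% against 23.0%. The excess of the 17 over the share of all genes thus depended on the setting.

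At P28, in mid anagen, 54 of the 81 genes rose and 0 fell, against 20% of all genes called higher and 15.6% called lower (limma, 14126 genes tested). Of the 81 values, 80 were positive and 69 had an unadjusted p under 0.05, against 6492 of the 14126 genes. The median log2 fold change was 0.74 against 0.00 for all genes, and positive under each scaling tried. Called genes ran from 0.50 to 1.496 on the log2 scale. In 72 of the 81 genes each dM1/2 library was above each control, against 28% of all genes. The 54 included 16 of the 17 genes called at P24 and 38 others.

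Rps19 had the largest rise at P28. Its normalized reads were 3701, 3413 and 2976 in controls and 7892, 11841 and 9033 in dM1/2. The groups were far apart, and the log2 fold change was 1.496 (standard error 0.19, limma with Benjamini-Hochberg adjusted p = 0.00165). Rpsa had 9434, 10061 and 6867 in controls and 18170.3, 27696 and 21531 in dM1/2. Its log2 fold change was 1.35 (standard error 0.24, limma with Benjamini-Hochberg adjusted p = 0.00629), again with no overlap of the groups. Rplp2 had 2477, 2394 and 1908 in controls and 4576, 7108 and 5329 in dM1/2, with a log2 fold change of 1.31 (standard error 0.20, limma with Benjamini-Hochberg adjusted p = 0.00323). These 3 genes were also among the largest rises at P24. Rps21, a small protein of the small subunit, had 1154, 1415 and 1086 in controls and 2286, 3136 and 2624 in dM1/2, and its log2 fold change was 1.14 (standard error 0.17, limma with Benjamini-Hochberg adjusted p = 0.00276).

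The lowest values at P28 were again led by Rpl7l1, which had 932, 802 and 1029 in controls and 692, 817 and 697 in dM1/2 and a log2 fold change of -0.32 (standard error 0.14, limma with Benjamini-Hochberg adjusted p = 0.117). With the reads outside the 84 genes as the scale that value was 0.02, so that its direction rested on the scaling. Rpl29, a large subunit protein, had 536, 434 and 638 in controls and 391, 529 and 1114 in dM1/2. Its groups overlapped, and its log2 fold change of 0.21 (limma with Benjamini-Hochberg adjusted p = 0.704) was -0.22 without P28 dM1/2 3. Rpl23a, Rpl38 and Rpl9 had 0.27, 0.35 and 0.38, and did not pass the test.

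Without the library labelled P28 control 3, whose Hdac1 was low, 41 genes were called at P28 and the median was 0.59. Without P28 control 2, which had the most Col1a1 of the P28 libraries, there were 52. The count was lower without P28 control 1 (21), P28 dM1/2 2 (19) or P28 dM1/2 3 (18), and it was 59 without P28 dM1/2 1. Among all genes tested, these 6 fits called higher, in the same order, 3088 of 14151, 2819 of 14101, 2007 of 14144, 1765 of 14145, 1870 of 14124 and 2409 of 14070, which in each was a smaller share than among the 81 (21.8% against 50.6% without P28 control 3 and 13.2% against 22.2% without P28 dM1/2 3). Of the 54 genes, 18 were called in all 6 of these fits, among them Rpsa, Rps19, Rplp2, Rps6, Rps21 and Rpl22. Between 79 and 80 of the 81 values were positive in each. edgeR called 59 (72.8% against 19.6% of all genes called higher) and DESeq2 64 (79.0% against 21.8%).

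**Figure D2:**
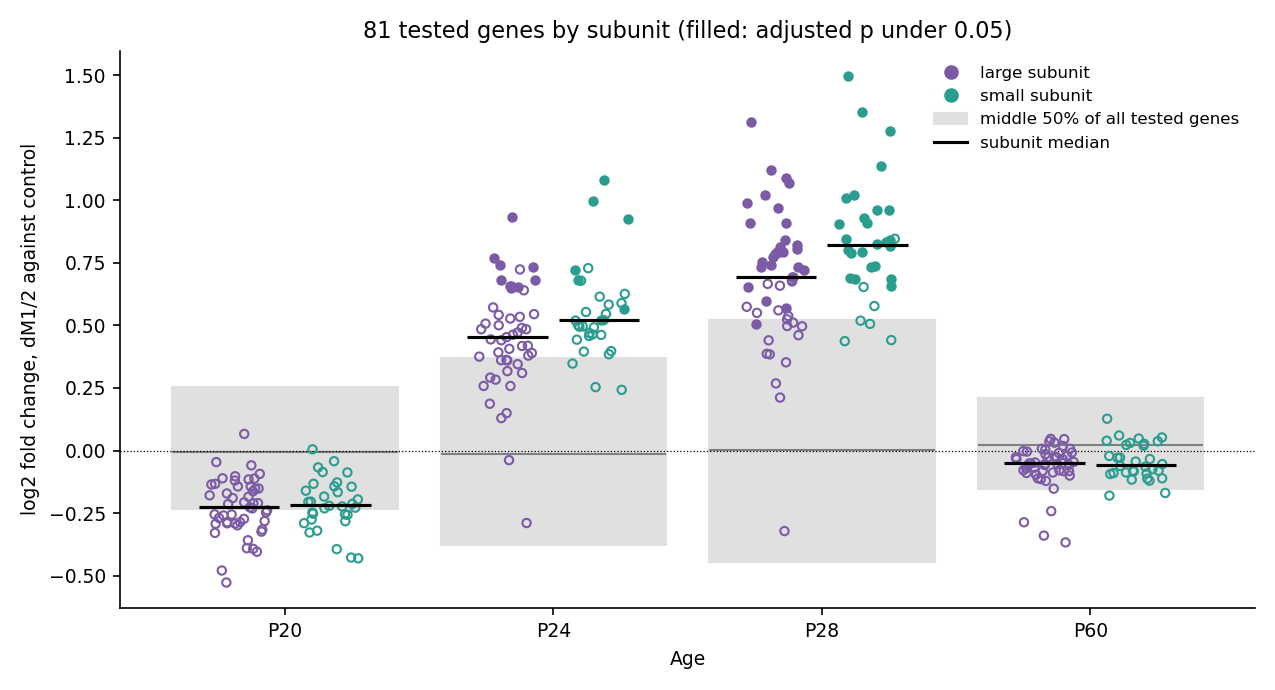
Log2 fold change of dM1/2 against control (vertical axis) for the 81 tested genes at the 4 ages, by subunit (purple, large; green, small), filled where the adjusted p was under 0.05, with the median of each subunit (black) and the middle 50% of all tested genes (grey). At P24 and P28 the medians, 0.45 and 0.52 and then 0.69 and 0.82, lie above the grey range, and at P20 the points lie mostly below 0, a direction that turns with the reads outside the 84 genes as the scale.

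At P60, in the second telogen, none of the 81 genes was called by limma, where 0 of 14042 genes, or 0%, were called at all. At an unadjusted p under 0.05 there were 0 of the 81 and 525 of all genes. Neither edgeR nor DESeq2 called any of the 81 (0 and 0), and over all genes they called 0 and 26. The median log2 fold change was -0.05 against 0.02, with 18 positive values, and it was 0.04 without P60 control 3 and 0.10 without P60 dM1/2 2. The largest differences were in Rpl23a (-0.37), Rpl29 (-0.34) and Rpl22l1 (-0.29), each with a limma Benjamini-Hochberg adjusted p = 0.986. Rpsa had 11032, 11314 and 14218 in controls and 15102, 9301 and 13146 in dM1/2 at this age, and the groups overlapped, as they did for Hdac1. In 0 of the 81 genes were all dM1/2 libraries on the same side of all controls, against 672 of 14042 genes with all dM1/2 libraries higher and 573 with all lower.

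From P24 to P28 in controls, none of the 81 genes was called (0 at an unadjusted p under 0.05, 0 by edgeR and 0 by DESeq2), against 204 of 13966 genes or 1.46% in either direction by limma (2593 of all genes at an unadjusted p under 0.05, 172 by edgeR and 1494 by DESeq2). The median log2 fold change was 0.10 against -0.02 for all genes, and turned to -0.17 with the reads outside the 84 genes as the scale, where the median of all genes was -0.25. It was also -0.05 without P24 control 3, 0.24 without P24 control 1, 0.02 without P28 control 1, 0.02 without P28 control 2 and 0.23 without the library labelled P28 control 3. The largest values were 0.28 in Rpl27a, 0.27 in Rpl38 and 0.26 in Rpl11. In dM1/2, 78 of 81 values were positive from P24 to P28 with a median of 0.37 against 0.01 for all genes, positive under each scaling tried. That median was 0.22 without P28 dM1/2 2 and 0.53 without P24 dM1/2 3. None was called by limma (11 at an unadjusted p under 0.05, 0 by edgeR and 0 by DESeq2), against 375 of 14032 genes or 2.67% in either direction (with 2357, 358 and 1127 of all genes by the other counts). Rps21 (0.55), Rpl22 (0.51) and Rps19 (0.51) had the largest values. Without P24 dM1/2 3, 1 of the 81 genes was called higher (1.23%), against 277 of 14103 genes (1.96%). The test of the difference itself, the genotype effect at P28 minus that at P24, called none of the 81 (0 at an unadjusted p under 0.05, 0 by edgeR and 0 by DESeq2), against 100 of 14139 genes or 0.707% (with 1680, 83 and 595 by the other counts). Its median was 0.27 against 0.03 for all genes, with 79 positive values, and it was 0.12 without the library labelled P28 control 3. With other libraries left out it lay between 0.10 (without P28 dM1/2 2) and 0.42 (without P24 dM1/2 3). With the reads outside the 84 genes as the scale, the share of higher genes among all calls moved from 49.5% to 18.8% in controls, from 63.2% to 42.5% in dM1/2 and from 64.0% to 87.1% for the difference. A larger effect at P28 than at P24 was thus not shown for any single gene.

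**Figure D3:**
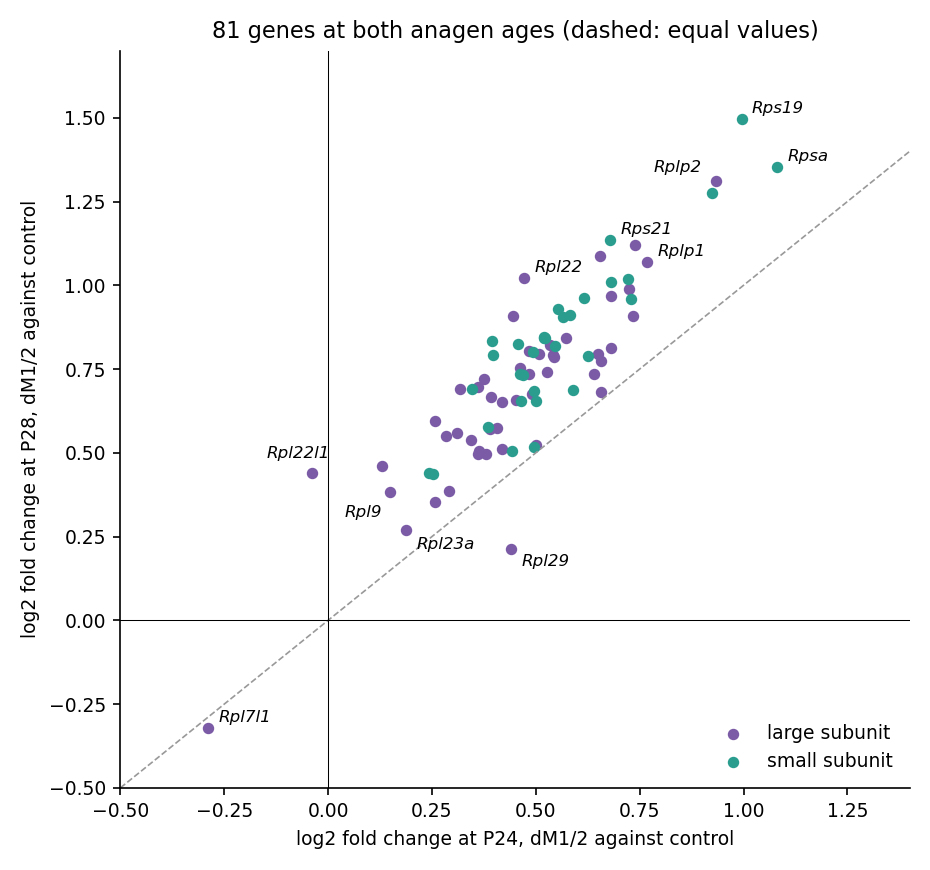
Log2 fold change of dM1/2 against control at P24 (horizontal axis) and at P28 (vertical axis) for the 81 tested genes (purple, large subunit; green, small subunit), with equal values dashed. Most points lie above the dashed line, Rpsa, Rps19 and Rplp2 lie far out at both ages, and Rpl7l1 lies at -0.29 and -0.32, the latter turning positive with the reads outside the 84 genes as the scale.

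The comparisons at P24 and at P28 share no library. Across the 81 genes their log2 fold changes had a Pearson r of 0.88 and a Spearman rho of 0.83, as a description only, since genes are not independent replicates and the genes of a library share its depth and scaling. The log2 fold change at P28 had r = 0.37 with the log2 mean level, 0.14 with the log2 exon length and -0.11 with the share of sequence found in other genes, over the same 81 genes.

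The genotype effect was larger in anagen than in telogen for most of the genes. In a single fit over the 24 libraries, the mean effect at P24 and P28 minus that at P20 and P60 was higher in 71 of the 81 genes and lower in 0, against 16.1% of all genes called higher and 14.1% called lower (limma, 14243 genes tested). The median of this difference was 0.75 against -0.03 for all genes, with 80 positive values under each scaling tried. It was 1.31 (standard error 0.24, limma with Benjamini-Hochberg adjusted p = 0.000460) for Rpsa, 1.26 (standard error 0.19, limma with Benjamini-Hochberg adjusted p = 0.000104) for Rps19 and 1.21 (standard error 0.19, limma with Benjamini-Hochberg adjusted p = 0.000148) for Rplp2. The 10 genes not called were Rplp0, Rpl23a, Rpl29, Rpl34, Rps4x, Rpl31, Rpl36, Rps14, Rpl9 and Rpl7l1. Without the library labelled P28 control 3 the count was 64, and it lay between 61 and 75 over the 24 fits that leave out 1 library. Among all genes, 13.7% to 16.6% were called higher in these 24 fits. edgeR called 71 (87.7% against 16.2% of all genes called higher) and DESeq2 73 (90.1% against 17.3%). Stage, sex and depth move together in this contrast, as given above. With the reads outside the 84 genes as the scale, the share of higher genes among all calls moved from 53.4% to 70.7%.

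Genes of both subunits were called. At P24, 10 of 49 large subunit genes and 7 of 32 small subunit genes were higher, against 14.8% of all genes, with median log2 fold changes of 0.45 and 0.52. At P28 it was 29 of 49 and 25 of 32, against 20% of all genes, with medians of 0.69 and 0.82. At P20 the medians were -0.23 and -0.22 on the authors' scale, and the direction of the 81 genes together turned with the reads outside the 84 genes as the scale. The ratio of large to small subunit reads within a library needs no scaling between libraries. At P24 it was 1.33 to 1.36 in controls and 1.27 to 1.28 in dM1/2. At P28 it was 1.35 to 1.38 in controls and 1.27 to 1.29 in dM1/2. At both anagen ages each dM1/2 library thus had relatively more small subunit reads than each control. At P20 the mean ratios were 1.31 and 1.29, and at P60 they were 1.29 and 1.28, where the groups overlapped in both. Rpsa alone made up 2.76% of the reads on the 84 genes in P24 controls and 4.06% in P24 dM1/2, and 2.78% and 4.12% at P28. Without Rpsa the ratio at P24 was 1.44 in controls and 1.41 in dM1/2, and at P28 1.46 and 1.41, so that the groups came closer. The ranges without Rpsa still did not overlap, with 1.42 to 1.46 against 1.41 to 1.41 at P24 and 1.45 to 1.47 against 1.401 to 1.43 at P28.

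The stalk of the large subunit holds the products of Rplp0, Rplp1 and Rplp2, and whether these genes differ in their response was not tested. Rplp0, which anchors the stalk, had 10020.0, 12428 and 6435 in controls and 11215, 18820.0 and 15159 in dM1/2 at P28, and its log2 fold change of 0.67 did not pass the test (limma with Benjamini-Hochberg adjusted p = 0.137). Its libraries overlapped between the groups. Rplp1 had 6193, 6901 and 4174 in controls and 9210.1, 15162 and 11781 in dM1/2 and rose by 1.07 (limma with Benjamini-Hochberg adjusted p = 0.0202), as Rplp2 did at both ages. Rpl5 and Rpl11 form a particle with a ribosomal RNA that can bind Mdm2, the ubiquitin ligase of p53. Rpl5 had 6762, 7451 and 4764 in controls and 8798, 13330.3 and 10487 in dM1/2 at P28, with a log2 fold change of 0.79 (limma with Benjamini-Hochberg adjusted p = 0.0408) after 0.54 at P24, which did not pass. Rpl11 had 2419.7, 2717 and 2000.5 in controls and 2791, 3966 and 3335 in dM1/2, and neither its 0.38 at P24 nor its 0.50 at P28 passed the test.

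Rps6 encodes the protein that S6 kinase phosphorylates, and its phosphorylation was not measured here. The mRNA had 7132, 5943 and 5065 in controls and 8613, 8407 and 12216 in dM1/2 at P24. It had 6562, 6724 and 5549 in controls and 10629, 15782 and 11932 in dM1/2 at P28. Its groups did not overlap at either age, and it rose by 0.68 (limma with Benjamini-Hochberg adjusted p = 0.0416) at P24 and by 1.01 (limma with Benjamini-Hochberg adjusted p = 0.00843) at P28. Rps27a is made as a fusion with ubiquitin. It had 4516, 4883 and 3602 in controls and 5736, 8433 and 6811 in dM1/2 at P28, and its log2 fold changes were 0.50 at P24, not past the test, and 0.68 at P28 (limma with Benjamini-Hochberg adjusted p = 0.0337).

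**Figure D4:**
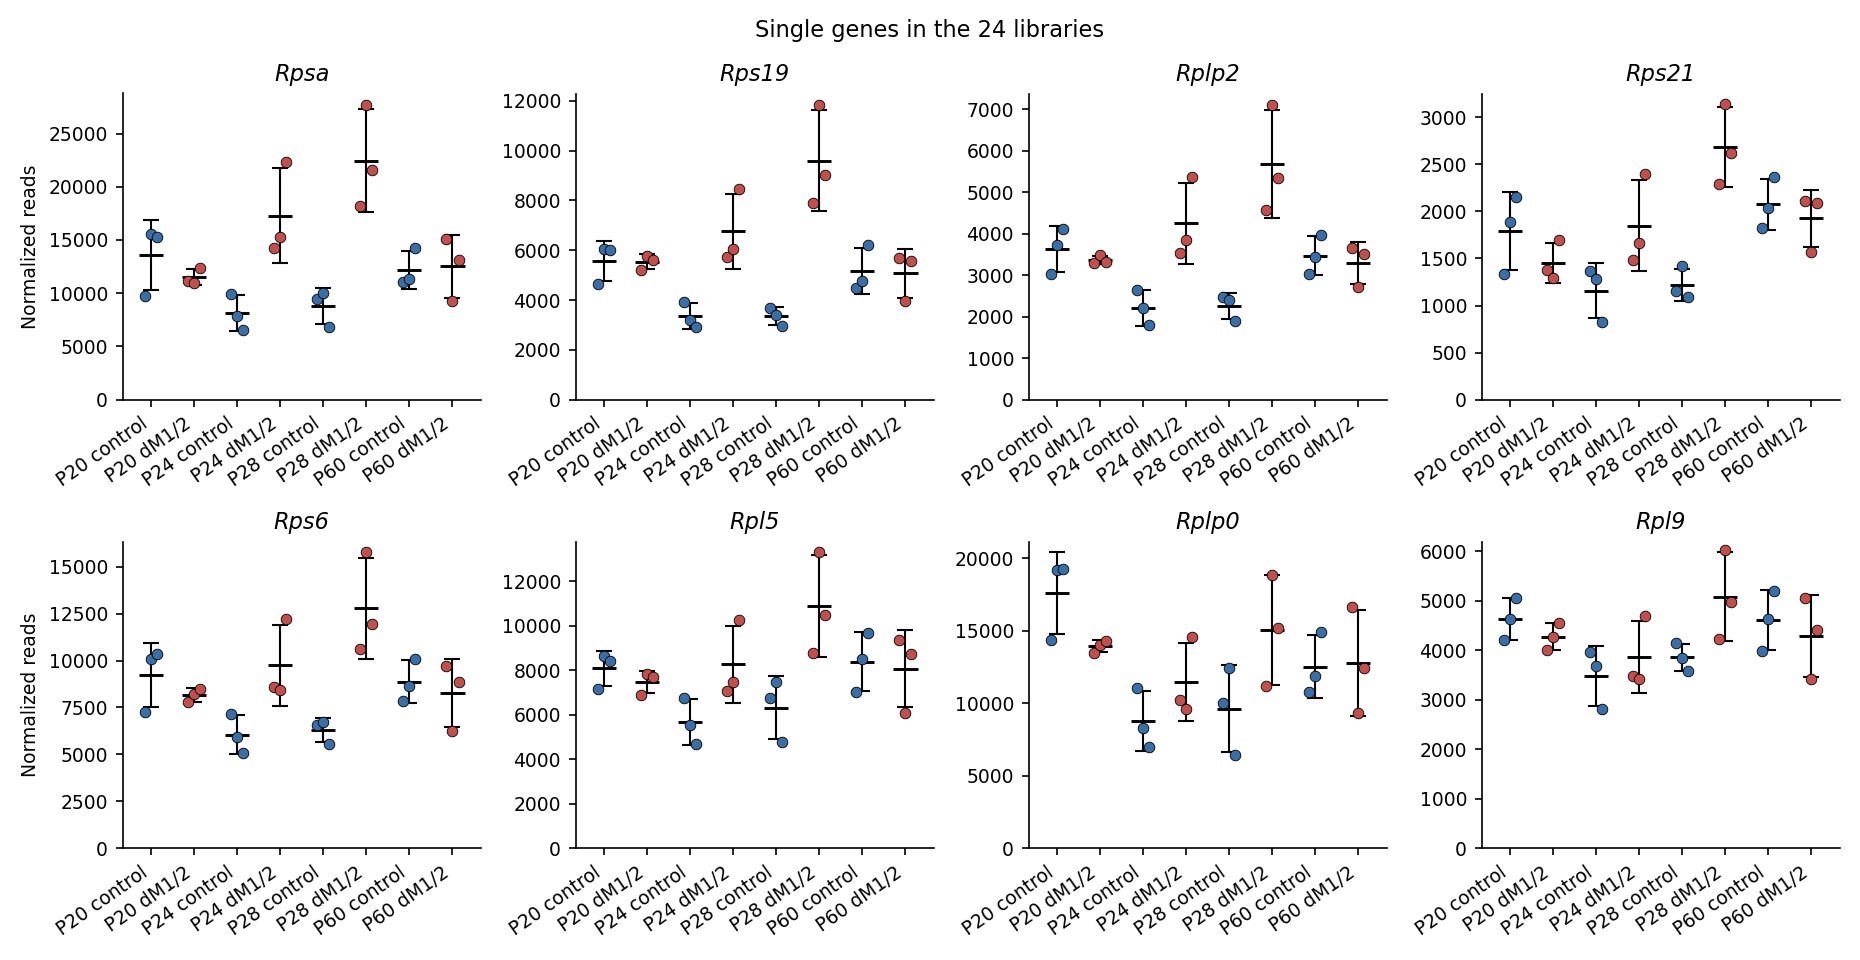
Normalized reads of Rpsa, Rps19, Rplp2, Rps21, Rps6, Rpl5, Rplp0 and Rpl9 in the 24 libraries (blue, control; red, dM1/2), with the mean and SD of 3 libraries. In the upper row and in Rps6 the dM1/2 libraries lie above the controls at P24 and P28 and among or near them at P20 and P60, and in Rplp0 and Rpl9 the groups are closer.

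Some ribosomal proteins have a second gene whose product can take the place of the first. Rpl22 had 2041, 1846 and 1889 in controls and 3307, 4950.2 and 3645 in dM1/2 at P28, with log2 fold changes of 0.47 at P24 and 1.02 at P28 (limma with Benjamini-Hochberg adjusted p = 0.00477). Its paralog Rpl22l1 had 1088, 1055 and 939 in controls and 1119, 1686 and 1428 in dM1/2, with -0.04 and 0.44 (limma with Benjamini-Hochberg adjusted p = 0.0860), and did not pass the test at either age. Per kilobase of exon, Rpl22 went from 661 in P28 controls to 1363 in P28 dM1/2, and Rpl22l1 from 516 to 709. Rpl39l, the copy of Rpl39 that is known from male germ cells, was nevertheless present. Its normalized reads were 392, 352 and 254 in controls and 446, 542 and 669.9 in dM1/2 at P24. It rose by 0.73 (limma with Benjamini-Hochberg adjusted p = 0.0394) at P24 and by 0.91 (limma with Benjamini-Hochberg adjusted p = 0.0130) at P28, while Rpl39 had 0.26, not past the test, and 0.60 (limma with Benjamini-Hochberg adjusted p = 0.0432). At P28 Rpl39l stood at 469 per kilobase in controls and 898 in dM1/2, and Rpl39 at 1768 and 2702. Whether the members of a pair differ from each other in their response was not tested.

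Rps27l, a paralog of Rps27 known as a p53 target, had 392, 406 and 353 in controls and 482, 506 and 681 in dM1/2 at P24. Its groups did not overlap, and it rose by 0.52 at P24, just inside the threshold (limma with Benjamini-Hochberg adjusted p = 0.04995), and by 0.84 at P28 (limma with Benjamini-Hochberg adjusted p = 0.0263). Rps27 had 0.47, not past the test, and 0.73 (limma with Benjamini-Hochberg adjusted p = 0.0291). Rpl7 had 0.31 and 0.56 and did not pass, and Rpl7l1 was described above. Rpl36al, which the naming rule leaves out, had 0.58 and 0.91 (limma with Benjamini-Hochberg adjusted p = 0.00686 at P28), against 0.50 and 0.52 for Rpl36a, which did not pass. Rpl3, whose muscle copy was not tested, rose by 0.72 at P28 (limma with Benjamini-Hochberg adjusted p = 0.0369). Rpl10, Rps4x and Rps3a1 had 0.55, 0.44 and 0.58 at P28 and did not pass.

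**Figure D5:**
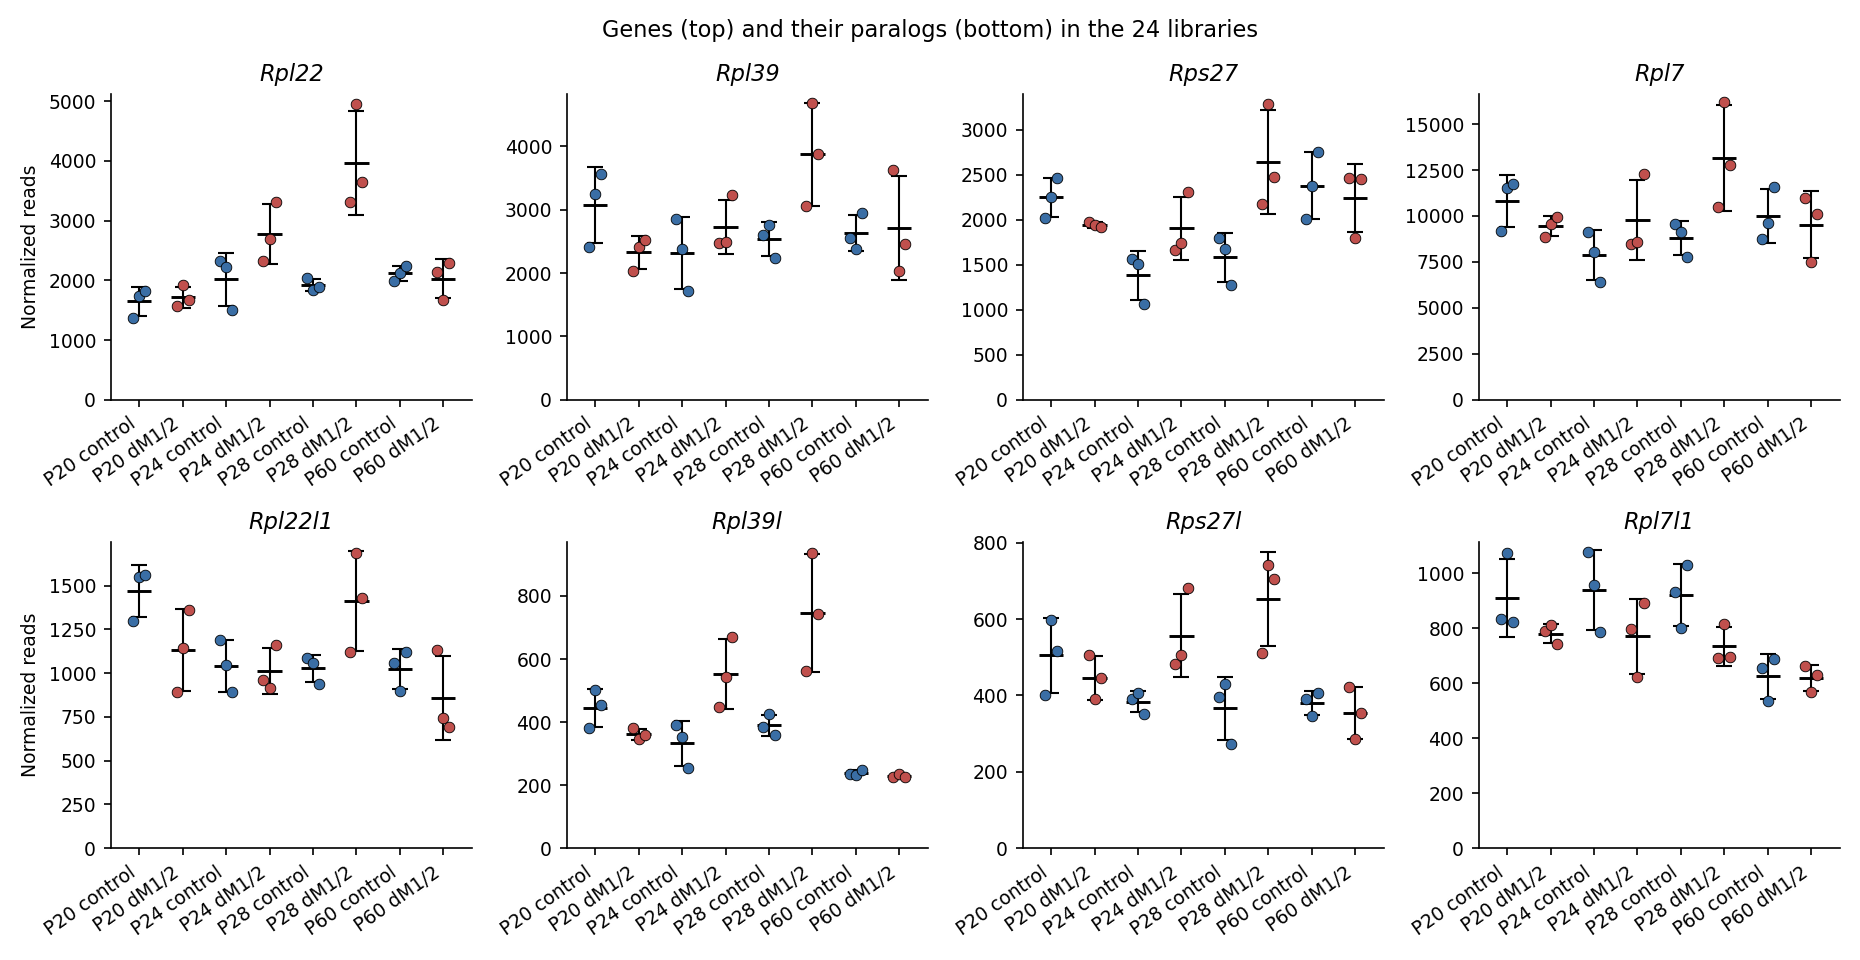
Normalized reads of Rpl22, Rpl39, Rps27 and Rpl7 (upper panels) and of their paralogs Rpl22l1, Rpl39l, Rps27l and Rpl7l1 (lower panels) in the 24 libraries (blue, control; red, dM1/2), with the mean and SD of 3 libraries. Rpl22 (narrowly at P24), Rps27, Rpl39l and Rps27l lie higher in dM1/2 at P24 and P28, and Rpl39, Rpl7 and Rpl22l1 do so at P28. Rpl7l1 has a lower dM1/2 mean at both ages, and with the reads outside the 84 genes as the scale its P28 difference turns positive.

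The starts of the genes show what many of them share beyond their names. RefSeq start sites (GRCm38.p6) were at hand for 63 of the 84 genes, with 75 entries. A pyrimidine run, here at least 8 bases of C or T on the coding strand that open with C within 30 bases of the start, was present in 54.7% of these entries and in 18.9% of all 32851 entries. The windows below run from 20 bases before to 30 bases after the start, with the run in capitals, and the genes were chosen after their values were seen. Rplp2 (chr7:141447631-141447680, plus strand), Rps6 (chr4:86857338-86857387, minus strand), Rpl27a (chr7:109519175-109519224, plus strand) and Rpl18 (chr7:45718051-45718100, plus strand) were called at both P24 and P28 and have a run. Rpsa (chr9:120127746-120127795, plus strand) had the largest rise at P24 and has none. Rpl11 (chr4:136053364-136053413, minus strand) has one that reaches the end of its window and was not called at either age, Rpl22l1 (chr3:28805488-28805537, plus strand) has one of 8, and Rpl7l1 (chr17:46782627-46782676, minus strand) has none.
Rplp2: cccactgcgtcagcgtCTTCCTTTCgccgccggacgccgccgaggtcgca
Rps6: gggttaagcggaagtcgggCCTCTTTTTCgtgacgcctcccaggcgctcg
Rpl27a: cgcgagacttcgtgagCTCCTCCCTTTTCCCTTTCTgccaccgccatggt
Rpl18: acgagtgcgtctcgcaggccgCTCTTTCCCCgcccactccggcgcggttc
Rpsa: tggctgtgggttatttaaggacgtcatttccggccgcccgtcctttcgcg
Rpl11: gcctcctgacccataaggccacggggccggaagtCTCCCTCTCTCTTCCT
Rpl22l1: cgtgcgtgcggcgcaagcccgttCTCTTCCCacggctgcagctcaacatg
Rpl7l1: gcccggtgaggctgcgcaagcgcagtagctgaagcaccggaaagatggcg

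Of the 39 genes with a run, 30 were called at P28 and the median log2 fold change was 0.79. Of the 22 tested genes with an entry and no run, 14 were called, with a median of 0.74. At P24 it was 8 of 39 and 6 of 22, with medians of 0.50 and 0.48. Over all genes, 14.8% were called higher at P24 and 20% at P28. Whether genes with and without the run differ was not tested. Both strands of the promoters, from 250 bases before to 50 after the start, were also searched for short motifs, of which none contains another. CCGGAA, the core that ETS factors bind, was in 48% of the entries of ribosomal protein genes and in 14.9% of all. GGGCGG, the GC box, was in 60% and 35.7%. CACGTG, the E-box of Myc, was in 10.7% and 7.15%, and AAGATGGCG, a sequence bound by YY1, in 8% and 1.403%. TATAAA, the TATA box, was in 9.33% and 13.6%. A match describes these letters only.

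Ribosomal protein genes have many processed pseudogenes, and reads of 50 bases can fit both. Of all 50-base windows of a gene's exons, a median of 20.4% occurred in another gene, 7 genes shared over 50% and 3 shared none. How reads with several matches were counted is not given in the sources used here, which bears on genes such as Rpl36 (81.1% shared), Rps3a1 (71.0%) and Rplp1 (60.0%). Of the 16 tested genes sharing under 10%, 13 were called at P28 with a median log2 fold change of 0.80. Of the 20 sharing 30% or more, 13 were called with a median of 0.71. Over all genes, 20% were called higher at P28. Of 16 annotated ribosomal protein pseudogenes, 3 had enough reads for a test at both anagen ages. Of these, 2 (Rps18-ps3 and Rps2-ps6) were higher at P24 and 1 (Rps18-ps3) at P28, named after their values were seen. Among all genes, 14.8% were called higher at P24 and 20% at P28.

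Some proteins of the ribosome have genes with other names, which the rule leaves out. Rack1, a scaffold on the small subunit, had log2 fold changes of 0.68 at P24, not past the test, and 1.05 at P28 (limma with Benjamini-Hochberg adjusted p = 0.0145). Fau, which encodes a small subunit protein fused to a ubiquitin-like protein, rose by 0.59 (limma with Benjamini-Hochberg adjusted p = 0.0486) and 0.95 (limma with Benjamini-Hochberg adjusted p = 0.00574).

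Among the genes that build ribosomes, many rose at the same ages on the authors' scale. Of 59 tested ribosome biogenesis factors (60 listed), 34 were higher and 0 lower at P24, with a median log2 fold change of 0.48, and 43 and 0 at P28, with a median of 0.76. Over all genes, 14.8% and 20% were called higher. At P28 these were led by Rrp12, an export factor of both subunits, at 2.32 (limma with Benjamini-Hochberg adjusted p = 0.000691), Rrp9 of the U3 particle at 1.65 (limma with Benjamini-Hochberg adjusted p = 0.000734) and Rrs1 of the large subunit precursor at 1.54 (limma with Benjamini-Hochberg adjusted p = 0.000636). Of 15 tested genes of RNA polymerase I and its factors (18 listed), which transcribe ribosomal RNA, 5 were higher and 1 lower at P24 and 6 and 0 at P28, with medians of 0.29 and 0.35. The largest values were 1.51 (limma with Benjamini-Hochberg adjusted p = 0.00182) in Polr1e, 1.30 (limma with Benjamini-Hochberg adjusted p = 0.00302) in Cd3eap and 1.24 (limma with Benjamini-Hochberg adjusted p = 0.00159) in Taf1d, all subunits or partners of the polymerase. Of 5 tested host genes of small nucleolar RNAs (16 listed), 2 were higher at P24 and 3 at P28 with 0 lower, and Zfas1 had 1.37 (limma with Benjamini-Hochberg adjusted p = 0.00439), Epb41l4aos 1.23 (limma with Benjamini-Hochberg adjusted p = 0.0247) and Snhg6 0.94 (limma with Benjamini-Hochberg adjusted p = 0.0181) at P28.

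Among the translation factors, 4 of the 8 genes listed as elongation factors were higher and 0 lower at P24 (median 0.56), and 5 and 0 at P28 (median 0.78). Eef1e1, which is named with the elongation factors but belongs to the complex of tRNA synthetases, and Eef1b2 and Eef1d of the elongation factor complex had 1.32 (limma with Benjamini-Hochberg adjusted p = 0.0100), 1.19 (limma with Benjamini-Hochberg adjusted p = 0.00984) and 0.94 (limma with Benjamini-Hochberg adjusted p = 0.00488) at P28. Of 34 initiation factor genes, 3 were higher and 0 lower at P24 (median 0.27), and 12 and 2 at P28 (median 0.35), against 14.8% and 20% of all genes called higher. Eif3i, Eif3f and Eif3h, subunits of the factor that holds the small subunit ready for mRNA, had 1.03 (limma with Benjamini-Hochberg adjusted p = 0.00322), 1.01 (limma with Benjamini-Hochberg adjusted p = 0.00581) and 0.97 (limma with Benjamini-Hochberg adjusted p = 0.00597). The proteins of the mitochondrial ribosome, encoded in the nucleus, are a separate set. Of 76 tested (77 in all), 7 were higher and 2 lower at P24 and 15 and 2 at P28, with medians of 0.20 and 0.34. Over all genes, 14.8% were called higher at P24 and 20% at P28, and 11.8% and 15.6% lower. Mrps6, Mrpl41 and Mrpl47 had the largest values at P28, at 1.84 (limma with Benjamini-Hochberg adjusted p = 0.00202), 1.19 (limma with Benjamini-Hochberg adjusted p = 0.00691) and 1.18 (limma with Benjamini-Hochberg adjusted p = 0.0256). In the contrast of anagen with telogen effects, 46 of 59 biogenesis factors, 8 of 15 polymerase I genes (with 1 lower), 3 of 5 small nucleolar RNA hosts, 5 of the 8 listed elongation factors, 14 of 34 initiation factors and 15 of 76 mitochondrial ribosomal protein genes were higher, against 71 of 81 cytosolic ones and 16.1% of all genes. At P20 and P60, limma called 0 of the 197 tested genes of these 6 lists, against 60 of 13845 and 0 of 14042 genes. There were 17 and 2 at an unadjusted p under 0.05, a smaller share than among all genes at both ages. edgeR and DESeq2 called 0 at either age, against 80 and 663 of all genes at P20 and 0 and 26 at P60.

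Markers of dividing cells were also higher in dM1/2 at the anagen ages, but their sums did not follow those of the 84 genes throughout. All 5 (Mki67, Top2a, Cdk1, Ccnb1 and Birc5) were higher at P24, with a median log2 fold change of 1.80, and at P28, with 3.47. Among all genes, 14.8% and 20% were called higher at these ages. Of the 5 markers, Top2a was the most abundant over the 24 libraries. Their summed level was 2267, 1527 and 5072 in P24 controls and 9195, 7528 and 9430.2 in P24 dM1/2. At P28 it was 686, 544 and 468 in controls and 5415, 5471 and 6365 in dM1/2. The groups did not overlap at either age. Among P24 controls, control 3 had the highest sum of these markers and the lowest summed level of the 84 genes (235968 normalized reads). In dM1/2 the mean marker sum went from 8718 at P24 to 5751 at P28. The mean summed level of the 84 genes went from 424170 to 545040. Cdk1 and Ccnb1 were at 0 in 1 library each. The sum at P20 was 225, 1956 and 1205 in controls and 216, 869.8 and 1328 in dM1/2, and at P60 it was 83.96, 119 and 76.1 in controls and 414, 146 and 153 in dM1/2. Their part in the result was not tested.

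Dermal papilla markers differed as well. At P20, 1 of the 10 was higher and 0 lower, against 0.433% of all genes called in either direction. Of the 10 values, 9 were positive, with a median log2 fold change of 0.46. Their summed level there was 18767, 20561 and 20303 in controls and 32223, 21699.6 and 27763 in dM1/2, with no overlap. Of the 10, 1 was higher and 6 were lower at P24, with a median log2 fold change of -0.80. At P28, 3 were higher and 3 lower, with a median of -0.93. The shares of all genes called higher and lower were 14.8% and 11.8% at P24, and 20% and 15.6% at P28. Among the 10 markers, Vcan was the most abundant and none was at 0. Their summed level was 242211, 257996 and 306503 in P24 controls and 127830, 139765 and 103293 in P24 dM1/2. At P28 it was 204208, 110071 and 298999 in controls and 83696, 68486 and 83479 in dM1/2, with the highest value in the library labelled P28 control 3. The sum was thus lower in dM1/2 at both anagen ages and higher at P20, with no overlap. At P60, limma called 0 of the 10, edgeR 0 and DESeq2 1, against 0, 0 and 26 of all 14042 genes tested. Of the 10, 4 had an unadjusted p under 0.05, a larger share than among all genes. The sums of the 10 were 17262, 18361 and 18578 in controls and 14903, 14782 and 23002 in dM1/2. Their part in the result was not tested.

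Markers of other cells of the skin were examined as well. For the counts that follow, 14.8% of all genes were called higher and 11.8% lower at P24, and 20% and 15.6% at P28. Of 8 keratinocyte markers, 7 were tested, with 1 lower at P24 and 1 higher at P28. Of 5 endothelial markers, 4 were tested at these ages, with 1 (Pecam1) lower at P24 and 0 called at P28 by limma (0 at an unadjusted p under 0.05, 0 by edgeR and 1 by DESeq2). Of 5 immune markers, 1 was lower at P24 and 0 were called at P28 (0 at an unadjusted p under 0.05, 0 by edgeR and 0 by DESeq2), and of 4 dermal sheath markers 1 was lower at both ages. Of 5 melanocyte markers 2 were tested at each age, with 0 called (0 at an unadjusted p under 0.05, 0 by edgeR and 0 by DESeq2), and of 4 skeletal muscle markers 1 was tested at P24, with 0 called by any of the 3 tools. Over the lists of other cells and of dividing cells, limma called 0 of 29 genes at P20 and 0 of 27 at P60. Over all genes, limma called 60 of 13845 and 0 of 14042. There were 5 and 4 of the listed genes at an unadjusted p under 0.05, a smaller share than among all genes at P20 and a larger one at P60. edgeR and DESeq2 called 0 of the listed genes, against 80 and 663 of all genes at P20 and 0 and 26 at P60. Krt17 was at 0 in 9 libraries, Dct in 9, Tyrp1 in 16, Cd3e in 10 and Myh4 in 20. The summed keratinocyte level did not exceed 868.4 normalized reads in any library. The part of keratinocytes in the result was not tested. Reads on Gm26917 and Gm42418, genes that overlap ribosomal RNA sequence, were 2.29 to 8.001% of a library in P24 controls and 6.67 to 10.6% in P24 dM1/2, and 3.54 to 6.12% against 8.40 to 12.3% at P28. At P20 they were 6.83 to 8.23% against 7.78 to 9.52%, and at P60 6.86 to 7.32% against 5.44 to 8.13%. The libraries were depleted of ribosomal RNA, and the part of these reads in the result was not tested.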

How the data were processed

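RNA of sorted dermal papilla cells was measured in 24 libraries, in 8 groups of 3 taken from the labels. The deposited values are a signal per gene, namely read counts that the authors divided by a size factor per library; the submitters' notes name Trimmomatic, TopHat2, HTSeq and DESeq2 on GRCm38.p4. Whole reads could be recovered for 100% of the values, within 0.001 reads. The strand and multiple-match settings of the counting are not given in the sources used here. The authors' fold-change and p columns hold their own tests and were not used. Reads on genes were 8171944 to 49331751 per library, and Wilson intervals of 95% were given for shares.

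Differences were tested in R 4.3.3 by limma 3.58.1, on the log2 of normalized reads plus 1 and with the variance trend, for genes with a mean of at least 10, with Benjamini-Hochberg adjustment over all genes tested and calls at an adjusted p under 0.05. Comparisons were dM1/2 against control at each age, P28 against P24 in each genotype, the difference of the P28 and P24 effects, and the difference of anagen and telogen effects. Alternatives were a pseudocount of 10, no filter, TMM scaling, scaling to reads outside the 84 genes, edgeR 4.0.16, DESeq2 1.42.0, 1 fit over the 24 libraries, a replicate block and leaving out each library.

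Named genes were Hdac1 and Hdac2, the largest changes of each comparison (5 in each direction at P24 and P28, 3 otherwise), genes with a known special role, paralog pairs, Rack1 and Fau, and from each companion list the 3 with the largest absolute change at P28; some genes that this rule takes are not reported here. Lists were elongation factors, initiation factors, mitochondrial ribosomal proteins, ribosome biogenesis, RNA polymerase I, hosts of small nucleolar RNAs, pseudogenes, and markers of dermal papilla, keratinocytes, melanocytes, endothelial cells, immune cells, skeletal muscle, dermal sheath and dividing cells. Listed genes not found in the files, most small nucleolar RNA hosts and Rps4l among them, were not analysed here. The members and lists were chosen with earlier results of these data known. Start sites and sequences are from RefSeq (GRCm38.p6), and exons from GENCODE M21, to which 25431 of 25755 genes were matched. Tables were made with Python 3.11.15 and pandas 2.3.3.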

Additional observations from a re-analysis of the deposited data

Results flagged for a closer look

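The genotype effect differed between anagen and telogen, tested as an interaction in limma over the 24 libraries with Benjamini-Hochberg adjustment, in 71 of the 81 ribosomal protein genes tested, all with a higher effect in anagen, against 16.1% of 14243 genes called higher and 14.1% called lower. Among them the difference on the log2 scale was 1.31 for Rpsa, 1.26 for Rps19 and 1.21 for Rplp2. Sex and depth differ between the same ages, and their part was not tested. Groups of 3 are too small for the rule on single outlying libraries, so none was tested that way.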

How the results depend on the processing

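Of the counts of called genes, those at P60, from P24 to P28 in controls and for the difference of the P28 and P24 effects were 0 under each alternative and with each library left out. At P20 the count was 2 with libraries scaled to reads outside the 84 genes, and 0 to 30 with 1 library left out. At P24 the count of 17 was 8 without the filter, 58 scaled to outside reads, 8 by edgeR, 32 by DESeq2, 26 in 1 fit over all libraries and 2 with the replicate block, and 1 to 22 with 1 library left out. The share of the genes called higher at P24 was below that of all genes without the filter, by edgeR (9.88% against 14.2%), with the block (2.47% against 9.95%) and in 5 of the 6 fits with 1 library left out. At P28 it was above that of all genes in each fit, and the count of 54 was between 36 (block) and 70 under the alternatives and 18 to 59 with 1 library left out. From P24 to P28 in dM1/2 it was 0 under the alternatives and 0 to 1 with 1 library left out. That 1 gene was 1.23% of the 81, against 1.96% of all genes called higher. For anagen against telogen the count was 63 (block) to 77 under the alternatives and 61 to 75 with 1 library left out. The share of the 81 genes called higher was above that of all genes in each of these fits. The cause was not tested. Of the genes called, 2 of 17 at P24 and 35 of 54 at P28 were called under all 8 other alternatives, and 63 of 71 for anagen against telogen under all 7. Replicate numbers are shared by label only: the correlations of same-number libraries at P20 were 0.21, 0.06 and 0.123, at P24 -0.159, 0.0278 and -0.388, at P28 -0.168, 0.0152 and -0.236, and at P60 0.304, 0.0288 and 0.152.

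Of 69 results on named genes, 502 of 549 values under alternatives were the same in direction and call, 23 lost the call, 20 gained it and 4 changed direction. With 1 library left out it was 404, 49, 8 and 7 of 468. Scaled to outside reads, Rpl22l1 at P24 was 0.14, Rpl7l1 at P28 0.0206, and from P24 to P28 in controls Rpl38 was -0.00800 and Rpl11 -0.0149. With 1 library left out, Rpl22l1 at P24 was -0.146 to 0.0624 (0.0624 and 0.0306 where it turned), Rpl36 -0.0206 to 0.244 (-0.0183 and -0.0206), Rpl23a -0.111 to 0.366 (-0.111 and -0.0475), and Rpl29 at P28 -0.218 to 0.535. The cause was not tested.

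With 3 libraries a group, leaving out 1 leaves 2. The anagen libraries hold more reads than the telogen libraries, and a count of 0 over the 24 libraries allows up to 3 reads. How reads with several matches were counted is unknown, which limits genes that share sequence with pseudogenes.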

Other observations

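The pseudogene Rps2-ps6, singled out after its values were seen, differed widely between libraries of the same group at P20 and in P28 and P60 controls and P28 dM1/2, and between the genotypes at P24. Its normalized reads were 316, 2.71 and 447 in P20 controls and 4.55, 268 and 329 in P20 dM1/2. They were 0.774, 1.51 and 1.59 in P24 controls and 307, 295 and 399 in P24 dM1/2. At P28 they were 1.30, 1.28 and 168 in controls and 0.853, 2.14 and 358 in dM1/2. At P60 they were 2.10, 319 and 383 in controls and 321, 211 and 240.0 in dM1/2.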
